A study of Sus scrofa with 92 samples.

Results

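Transcripts of 9 heat shock protein genes were followed in pig liver biopsies through hemorrhagic shock and resuscitation: DNAJB1, HSPH1, HSPA8 and HSP90AA1, whose products work in the cytosol, HSPD1, HSPE1 and HSPA9, whose products work in mitochondria, and the cofactor BAG3 and the small heat shock protein HSPB1. Members were chosen by gene symbol, and every identifier in the count table that carries a member symbol was taken. The 9 symbols matched 11 of 25322 pig Ensembl identifiers, because DNAJB1 and HSPB1 each had 2. The second DNAJB1 identifier (ENSSSCG00000024464) had no count in any library, so 10 identifiers were tested for changes from Baseline. Levels are CPM, counts scaled to library size, with library sizes adjusted by the trimmed mean of M-values (TMM). Gene lengths were not used here, so levels are compared between samples and never between genes.

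Heat shock proteins are molecular chaperones that bind unfolded polypeptides and keep them from aggregating. When misfolded protein accumulates, heat shock factor HSF1 is released from chaperones, forms trimers and switches on a set of genes that includes DNAJB1, HSPH1, HSP90AA1, BAG3 and HSPB1. In the cytosol DNAJB1, a J-domain protein of the HSP40 family, delivers clients to HSP70 proteins such as HSPA8 and speeds their ATP hydrolysis, and HSPH1, a large HSP110 protein, exchanges their nucleotide. HSP90AA1 then takes over signalling proteins such as kinases and steroid receptors. In the mitochondrial matrix HSPA9 pulls imported precursors through the membrane, and HSPD1 with its lid HSPE1 forms the folding chamber known as HSP60 and HSP10. In liver, ischemia and reperfusion are classical triggers of this response.

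The animals were juvenile male Yorkshire-Landrace pigs, 18 fasted (FS) and 5 carbohydrate prefed (CPF). All pigs were fasted overnight, and CPF pigs received a bolus of sugar syrup before anesthesia was induced. All of them, in both groups, were anesthetised, instrumented and splenectomised, then received a blunt chest injury, hemorrhage and a crush injury of the liver, followed by limited and then full resuscitation, so no uninjured series of biopsies stands beside the injured ones. Biopsies were taken from the edge of the liver at Baseline (B, after instrumentation and before hemorrhage) and at 2, 8 and 20 h of full resuscitation (FR2, FR8 and FR20). The labels mark 3 FS and 2 CPF animals as having died. The 23 animals are numbered here from 1 to 23, and each was biopsied at every timepoint, so a change from Baseline is a change within animals and the FR2, FR8 and FR20 changes share the same Baseline libraries.

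Of 92 libraries, 88 were used, with 6877117 to 16613261 counts each (median 12071957.5). Set aside were 3 FS Baseline libraries, those of animals 17, 19 and 21, which had 4 to 899 counts of albumin, the plasma protein that defines hepatocytes, against at least 170443 counts in every library used, and the CPF FR8 library of animal 3, which had 4388 counts in total. Other sets of libraries stood apart once the data had been examined. In the FR2 and FR8 libraries of FS animal 11, 446 and 443 of 4410 genes with a median level of at least 20 CPM had no count, 443 of them in both, while 1 such gene had no count in any of the other 86 libraries. HSPA8 was among these genes, together with all 13 genes encoded by mitochondrial DNA. In 18 libraries (16 FS and 2 CPF, from 8 animals) the expression profile over 8025 genes correlated best with the mean profile of another timepoint than the labelled one. In each of FS animals 17, 19 and 21 the library labelled FR2 was nearest to FR8, the one labelled FR8 nearest to Baseline and the one labelled FR20 nearest to FR2. The Baseline libraries of FS animals 4 and 10 were nearest to FR20 and FR8. Values are given with all 88 libraries and, where they differ, without these sets. The 18 libraries were picked on expression itself, which separates the timepoints and narrows the spread of those that remain. Values without them are therefore given as sizes and ranges, without p-values, and are no separate support. Counts of calls without them, given with the dependence on processing, are descriptions as well. What produced either set was not tested.

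Most of the 9 genes were higher after resuscitation than at Baseline in FS animals, with DNAJB1, HSPH1, HSPA8 and HSP90AA1 at the front at FR2 and HSPD1 joining at FR8. A gene was called changed at an adjusted p under 0.05 with a change of at least 1 on the log2 scale, by edgeR's quasi-likelihood test over 13667 genes. At FR2vB in FS, 4 of the 8 members other than HSPB1 were called, all higher (DNAJB1, HSPH1, HSPA8 and HSP90AA1), where 5.17% of all genes were called higher and 11% in either direction. At FR8vB, 5 of the 8 were called, DNAJB1, HSPA8, HSP90AA1 and HSPD1 higher and BAG3 lower, beside 4.44% of all genes called higher and 7.39% lower (11.8% in all). At FR20vB, DNAJB1, HSPH1, HSPA8 and HSP90AA1 were higher and BAG3 lower, 5 of 8 in all, beside 4.68% and 5.25% of genes (9.94% in all). HSPB1 also passed both thresholds at FR2vB and FR8vB in FS, at very few counts and by edgeR but not by DESeq2, and is left out of these counts. HSPD1 at FR8vB was not called by DESeq2 either. In CPF, DNAJB1 and HSPH1 were called at FR2vB, both higher, where 1.47% of genes were called higher and 2.41% in either direction. At FR8vB in CPF, 5 members were called higher (DNAJB1, HSPH1, HSPA8, HSP90AA1 and HSPD1) beside 3.70% of genes called higher and 8.83% in either direction. At FR20vB in CPF none of the 9 was called by edgeR, beside 0.702% of all genes, and 1, BAG3, was called by DESeq2. By edgeR 2 members had an unadjusted p under 0.05 there, beside 2249 of 13667 genes. The median change of the 8 members other than HSPB1 was 0.93 (FR2), 0.97 (FR8) and 0.88 (FR20) on the log2 scale in FS, where the median of all genes was -0.043, -0.0016 and 0.042. In CPF it was 0.85, 1.73 and 0.43. With the 3 Baseline libraries that lack albumin kept, the FR20vB calls in FS were BAG3 and DNAJB1 alone. In animals that lived, the FR8vB calls in FS were BAG3 and HSP90AA1 alone, and in the 3 CPF animals that lived no member was called by edgeR at FR2vB or FR8vB, with 4 and 7 at an unadjusted p under 0.05.

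DNAJB1 (ENSSSCG00000013784) showed the highest fitted change of the 8 well-counted members at FR2. In FS animals its level ran from 27.8 to 252 CPM at Baseline with a median of 49.1. At FR2 it spanned 93.9 to 1484 CPM (median 290.5), at FR8 31.3 to 341 CPM (median 110) and at FR20 46.2 to 972 CPM (median 131). The Baseline and FR2 ranges overlapped through the Baseline libraries of animals 10 (252 CPM) and 4 (153 CPM), and 10 of the 18 FR2 libraries lay above the highest Baseline library. In CPF animals 3, 7, 8, 13 and 18 DNAJB1 stood at 40.3, 70.6, 104, 37.2 and 39.3 CPM at Baseline and at 480, 474, 973, 125 and 352 CPM at FR2. At FR8 animals 7, 8, 13 and 18 were at 364, 191, 290 and 215 CPM, and at FR20 all 5 were at 87.3, 50.9, 147, 31.6 and 91.9 CPM. Every CPF library at FR2 and FR8 was thus above every CPF Baseline library, while the FR20 libraries overlapped Baseline. How many of all genes separate these few CPF libraries in the same way was not counted, here or for the members below.

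DNAJB1 rose 5.05-fold at FR2vB in FS (log2 fold change 2.34, SE 0.38, edgeR adjusted p = 1.91e-06), with 14 of 15 paired animals higher. It was still 2.12-fold higher at FR8 (1.08, SE 0.36, edgeR adjusted p = 0.0123) and 2.56-fold higher at FR20 (1.35, SE 0.38, edgeR adjusted p = 0.00421). The FR8vB call was lost when animal 6, 12, 20 or 22 was left out (lowest 0.92). From FR2 to FR8 it fell by 1.25 on the log2 scale in FS (SE 0.33, edgeR adjusted p = 0.00328), in 14 of 18 animals. In CPF DNAJB1 rose 7.67-fold at FR2 (2.94, SE 0.65, edgeR adjusted p = 0.00773) and 5.40-fold at FR8 (2.43, SE 0.67, edgeR adjusted p = 0.0125), in every animal with a pair. At FR20 the CPF change was 0.47 (SE 0.76) and 3 of 5 animals were higher. Leaving out CPF animal 3 or 18 ended the CPF FR2vB call, and leaving out 13 or 18 the CPF FR8vB call (lowest 2.09).

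HSPH1 (ENSSSCG00000009334) followed the same course. In FS the Baseline libraries held 15.7 to 182 CPM (median 33.2), the FR2 libraries 58.4 to 1702 CPM (median 187), the FR8 libraries 17.3 to 300.1 CPM (median 70.9) and the FR20 libraries 31.1 to 1241 CPM (median 89.7). Animals 4 and 10 were again the highest at Baseline (182 and 163 CPM), and animals 9 and 19 at FR2 (1702 and 877 CPM). The 5 CPF animals, in the same order, read 18.3, 39.3, 69.7, 29.5 and 33.2 CPM at Baseline and 161, 145, 501, 83.1 and 222 CPM at FR2. Animals 7, 8, 13 and 18 read 138, 158, 330 and 115 CPM at FR8, and all 5 read 29.8, 20.1, 96.1, 25.2 and 74.9 CPM at FR20. Here too the CPF libraries of FR2 and FR8 lay above all CPF Baseline libraries.

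HSPH1 rose 4.86-fold at FR2vB in FS (log2 fold change 2.28, SE 0.44, edgeR adjusted p = 4.14e-05), in 14 of 15 animals, and was 2.67-fold higher at FR20 (1.42, SE 0.45, edgeR adjusted p = 0.0109). The FR8vB difference of 0.94 (SE 0.41, edgeR adjusted p = 0.0643) missed the threshold with 14 of 15 animals higher, and without the 18 libraries it was 1.68. Between FR2 and FR8 HSPH1 fell by 1.35 in FS (SE 0.40, edgeR adjusted p = 0.00816). In CPF it rose 5.53-fold at FR2 (2.47, SE 0.74, edgeR adjusted p = 0.0474) and 5.13-fold at FR8 (2.36, SE 0.79, edgeR adjusted p = 0.0367). The CPF FR2vB call was lost when animal 1, 2, 3, 5, 6, 7, 8, 13, 14, 16, 18 or 22 was left out, with values from 2.30 to 2.66. Its FR8vB call was lost when any CPF animal was left out, down to 1.71 without animal 13, and also with the 3 Baseline libraries that lack albumin kept and when fitted without terms for the animals (2.28). At FR20 the CPF change was 0.29 (SE 0.88).

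**Figure D1:**
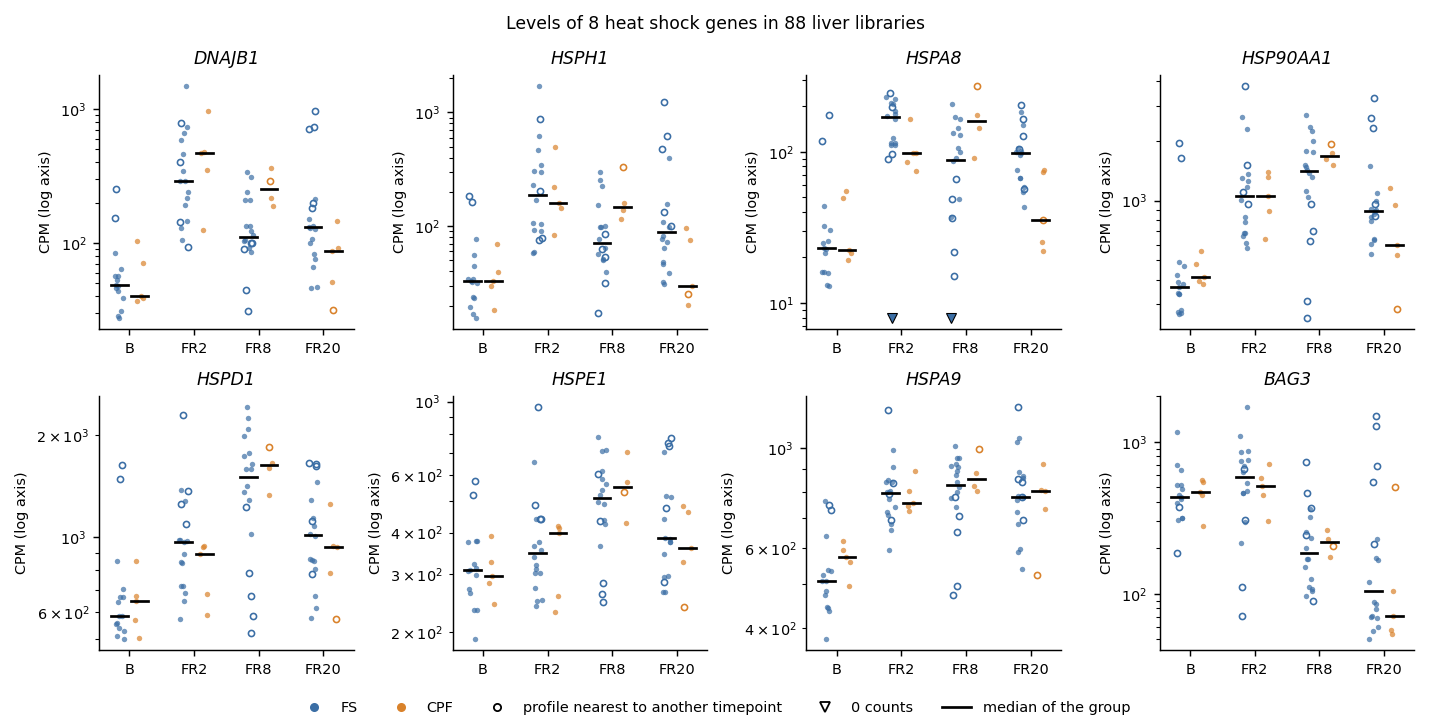
Levels of 8 heat shock protein genes in CPM (log axis) at Baseline, FR2, FR8 and FR20 in FS and CPF animals, 1 point per library with the group median as a bar. Open circles mark the 18 libraries whose profile was nearest to another timepoint, and triangles mark the 2 HSPA8 libraries of animal 11 with no count. DNAJB1 medians in FS go from 49.1 CPM at Baseline to 290.5 at FR2 and 110 at FR8, and BAG3 medians from 431 CPM at Baseline to 104 at FR20.

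HSPA8 (ENSSSCG00000015140), the HSP70 that cells make without stress, is also the protein that strips clathrin from coated vesicles. In FS its level ran from 12.9 to 176 CPM at Baseline with a median of 22.97, and from 43.3 to 202 CPM with a median of 98.7 at FR20. At FR2 the median was 169 CPM and the highest library 245 CPM, and at FR8 the median was 88.9 and the highest 206 CPM. The lowest library at both of these timepoints was that of animal 11, with 0 counts of 8260616 and of 11242258, beside 160 counts at Baseline and 1223 at FR20 in the same animal. A count of 0 at these depths allows up to 3 counts, while the next lowest HSPA8 count in any library used was 87. The second lowest FR2 library was at 89.2 CPM (animal 10) and the second lowest FR8 library at 15.2 CPM (animal 17). For CPF animals 3, 7, 8, 13 and 18 HSPA8 was at 19.3, 49.2, 55.1, 22.5 and 21.3 CPM at Baseline, and at 85.6, 74.6, 165, 97.7 and 98.7 CPM at FR2. At FR8 animals 7, 8, 13 and 18 were at 143, 176, 272 and 91.1 CPM, and at FR20 the 5 were at 25.3, 22.04, 75.7, 35.7 and 73.4 CPM. All CPF libraries of FR2 and FR8 were above all CPF Baseline libraries.

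With all libraries HSPA8 rose 4.59-fold at FR2vB in FS (log2 fold change 2.20, SE 0.44, edgeR adjusted p = 5.43e-05), 2.47-fold at FR8vB (1.30, SE 0.42, edgeR adjusted p = 0.0105) and 3.38-fold at FR20vB (1.76, SE 0.43, edgeR adjusted p = 0.0011), each in 13 of 15 animals. At FR2 and FR8 animal 11, with its 0 counts, was 1 of the 2 animals that were lower. Without the 2 libraries of animal 11 the FR2vB and FR8vB changes were 2.37 and 1.47. With the 3 Baseline libraries that lack albumin kept, the FR8vB and FR20vB calls were lost. Of the 8 well-counted members, HSPA8 had the highest change at FR20 in FS. In CPF the change was 1.66 at FR2 (SE 0.72, edgeR adjusted p = 0.18), short of the threshold with 5 of 5 animals higher, and it rose 4.80-fold at FR8 (2.26, SE 0.77, edgeR adjusted p = 0.0414). That FR8vB call was lost when any CPF animal was left out (lowest 1.77, without animal 13), with no filter on low counts and with the 3 Baseline libraries kept. At FR20 the CPF change was 0.45 (SE 0.80).

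HSP90AA1 (ENSSSCG00000002535), the stress-inducible cytosolic HSP90, had its highest FS median at FR8 rather than FR2. Baseline levels in FS spanned 267 to 1945 CPM (median 365). The FR2 libraries spanned 574 to 3778 CPM (median 1055), those of FR8 257 to 2710 CPM (median 1408) and those of FR20 536 to 3275 CPM (median 890). The highest Baseline libraries were those of animals 10 and 4 (1945 and 1636 CPM), and the lowest FR8 libraries those of animals 17 and 21 (257 and 313 CPM). Without the 18 libraries the Baseline range was 267 to 490 CPM, the FR2 range 574 to 2637, the FR8 range 1045 to 2710 and the FR20 range 536 to 1489 CPM. HSP90AA1 in CPF animals 3, 7, 8, 13 and 18 stood at 556, 382, 478, 394 and 412 CPM at Baseline and at 1053, 643, 1311, 883 and 1398 CPM at FR2. At FR8 animals 7, 8, 13 and 18 were at 1515, 1627, 1937 and 1736 CPM, and FR20 levels were 948, 531, 1152, 284 and 598 CPM. The 4 CPF libraries of FR8 were above every CPF library of the other timepoints.

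HSP90AA1 rose 2.37-fold at FR2vB (log2 fold change 1.25, SE 0.28, edgeR adjusted p = 0.000287), 2.92-fold at FR8vB (1.54, SE 0.28, edgeR adjusted p = 1.26e-05) and 2.19-fold at FR20vB (1.13, SE 0.28, edgeR adjusted p = 0.00126) in FS, with 13, 14 and 13 of 15 animals higher. In CPF the FR2vB change of 1.23 (SE 0.47, edgeR adjusted p = 0.129) missed the threshold with all 5 animals higher. It rose 4.15-fold at FR8vB in CPF (2.05, SE 0.51, edgeR adjusted p = 0.00697), and the FR20vB change was 0.58 (SE 0.57).

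The mitochondrial chaperonin pair HSPD1 and HSPE1 reached its highest median at FR8 in both feeding groups. HSPD1 (ENSSSCG00000016077) in FS spanned 502 to 1625 CPM at Baseline (median 588) and 575 to 2293 CPM at FR2 (median 968). Its FR8 libraries spanned 521 to 2410 CPM (median 1500.0) and its FR20 libraries 579 to 1651 CPM (median 1014). CPF animals 3, 7, 8, 13 and 18 read 850.2, 569, 649, 506 and 673 CPM at Baseline, 891, 590.4, 936, 680 and 944 at FR2, and 939, 937, 1251, 573 and 785 at FR20. The 4 CPF libraries of FR8, at 1598, 1331, 1842 and 1654 CPM for animals 7, 8, 13 and 18, were above all other CPF libraries. Without the 18 libraries the FS Baseline and FR8 ranges were 502 to 851 and 1018 to 2410 CPM.

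HSPD1 rose 2.01-fold at FR8vB in FS (log2 fold change 1.01, SE 0.18, edgeR adjusted p = 1.66e-05), in 14 of 15 animals. That change sits at the fold threshold: the call was lost when animal 1, 6, 8, 9, 11, 12, 14, 15, 16, 18 or 23 was left out, with values of 0.92 to 1.15 over the 23 animals left out in turn, and it was 1.00, not called, without the 2 libraries of animal 11 and 1.45 without the 18. The FR2vB and FR20vB changes were 0.47 (edgeR adjusted p = 0.0351) and 0.51 (edgeR adjusted p = 0.0252), both under the fold threshold. In CPF HSPD1 rose 2.64-fold at FR8vB (1.40, SE 0.35, edgeR adjusted p = 0.00707), and 2.12-fold from FR2 to FR8 (1.08, SE 0.35, edgeR adjusted p = 0.0437), the only member called from FR2 to FR8 in CPF, where 2.57% of all genes were called higher and 4.92% in either direction. The FR2 to FR8 call was lost in 7 of 13 alternative settings and when animal 3, 5, 7, 8, 13, 18 or 22 was left out, with values from 0.93 to 1.24.

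HSPE1 (ENSSSCG00000016078), whose gene neighbours HSPD1 in the RefSeq annotation, had smaller changes of the same shape. FS Baseline libraries held 190.5 to 575 CPM (median 308) and FR2 libraries 239 to 962 CPM (median 346). FR8 libraries held 247 to 783 CPM (median 509) and FR20 libraries 264 to 776 CPM (median 385). HSPE1 in CPF animals 3, 7, 8, 13 and 18 was at 390.5, 242, 296, 281 and 326 CPM at Baseline, 413, 256, 419, 229.5 and 399.5 at FR2, and 359.5, 462, 482, 237 and 326 at FR20, with 702, 429, 531 and 572 CPM in animals 7, 8, 13 and 18 at FR8. The FR8vB change was 0.60 in FS (SE 0.15, edgeR adjusted p = 0.00116, 14 of 15 animals higher) and 0.93 in CPF (SE 0.29, edgeR adjusted p = 0.0261). Both passed the p threshold but stayed under the fold threshold. The FR2vB changes were 0.18 and 0.14, with edgeR adjusted p = 0.37 in FS.

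HSPA9 (ENSSSCG00000014338), the mitochondrial HSP70, had the narrowest range relative to its level of the 8 well-counted members. Its FS medians were 509 CPM at Baseline (range 379 to 763), 796 CPM at FR2 (596 to 1215), 830.0 CPM at FR8 (472 to 1008) and 780.4 CPM at FR20 (540.3 to 1231). In CPF animals 3, 7, 8, 13 and 18 the levels were 575, 595, 622, 496 and 561 CPM at Baseline, 744, 805, 726, 889 and 756 at FR2, and 732, 920, 808, 523 and 802 at FR20, with 804, 824, 994 and 882 CPM in animals 7, 8, 13 and 18 at FR8. Every CPF library at FR2 and FR8 was above every CPF Baseline library. Its FS changes were 0.61 at FR2, 0.61 at FR8 and 0.62 at FR20 (SE 0.10 each, edgeR adjusted p = 4.63e-06, 5.07e-06 and 4.45e-06), a 1.52- to 1.54-fold difference under the fold threshold, with 15, 14 and 13 of 15 animals higher. In CPF the FR8vB change was 0.62 (SE 0.20, edgeR adjusted p = 0.0286).

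**Figure D2:**
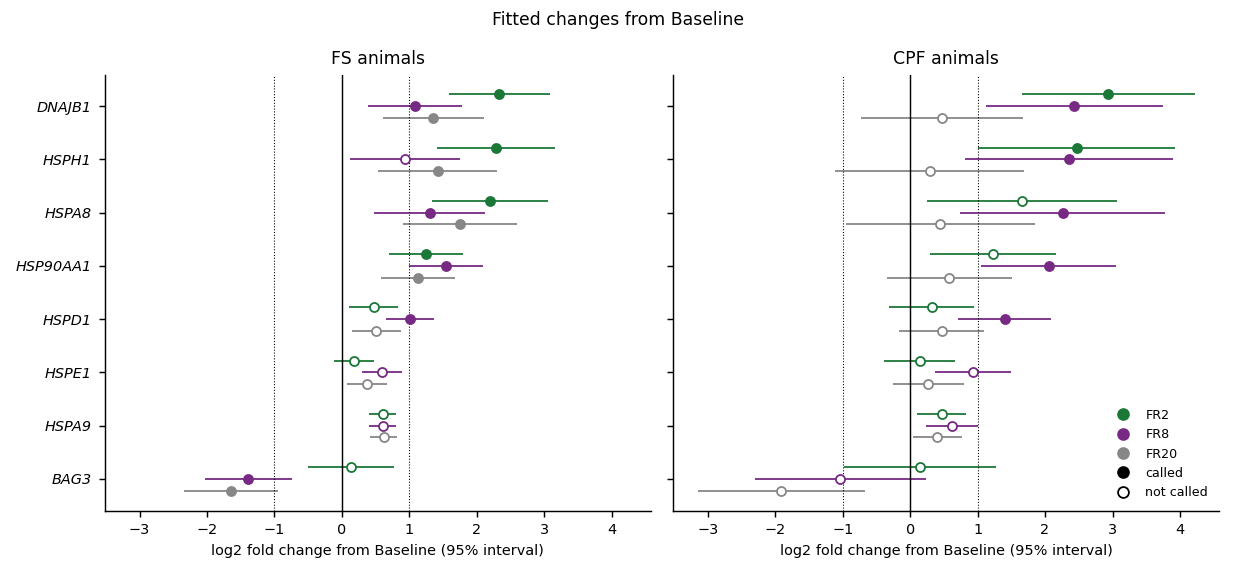
Fitted log2 fold changes from Baseline with 95% intervals for each gene at FR2, FR8 and FR20, in FS and CPF. Filled symbols passed both thresholds and dotted lines mark a change of 1 in either direction. In FS, DNAJB1 goes from 2.34 at FR2 to 1.08 at FR8, HSP90AA1 from 1.25 to 1.54 and HSPD1 from 0.47 to 1.01, while BAG3 goes from 0.14 to -1.39.

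BAG3 (ENSSSCG00000010686) is a cofactor that exchanges the nucleotide of HSP70 and hands its clients to autophagy. In FS it fell at FR8 and FR20, and was not called at FR2. Its FS Baseline libraries held 184 to 1163 CPM (median 431), FR2 libraries 71.6 to 1687 CPM (median 585), FR8 libraries 90.0 to 737 CPM (median 185) and FR20 libraries 50.5 to 1485 CPM (median 104). The highest FR20 libraries, those of animals 21 and 19 (1485 and 1263 CPM), were among the libraries nearest to another timepoint, and without these 18 the FS FR20 range was 50.5 to 229 CPM against 305 to 1163 CPM at Baseline. In CPF animals 3, 7, 8, 13 and 18 BAG3 was at 543, 279, 446, 468 and 561 CPM at Baseline, 576, 302, 711, 444 and 508 at FR2, and 54.6, 58.0, 104, 507 and 70.9 at FR20. At FR8 animals 7, 8, 13 and 18 were at 261, 230.4, 207 and 174 CPM, all under the CPF Baseline range.

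The FR2vB change of BAG3 was 0.14 in FS (edgeR adjusted p = 0.76) and 0.15 in CPF. It fell by 1.39 on the log2 scale at FR8vB in FS (SE 0.33, edgeR adjusted p = 0.000609), a 2.62-fold drop, and by 1.65 at FR20vB (SE 0.35, edgeR adjusted p = 0.000225), a 3.13-fold drop, each in 14 of 15 animals. Fitted without terms for the animals, the FR20vB change was -0.65 and was not called. From FR2 to FR8 it fell by 1.53 in FS (SE 0.32, edgeR adjusted p = 0.000344), so DNAJB1, HSPH1 and BAG3 were the 3 members called lower between these timepoints, beside 3.43% of all genes called lower and 5.96% in either direction. In CPF the changes were -1.03 at FR8 (SE 0.65, edgeR adjusted p = 0.297) and -1.91 at FR20 (SE 0.63, edgeR adjusted p = 0.109), lower in 4 of 4 and 4 of 5 animals. The exception at FR20 was animal 13, whose FR20 library was nearest to Baseline, and without the 18 libraries the CPF FR20vB change was -2.70.

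HSPB1, which codes for the small heat shock protein HSP27, was barely counted. Its identifiers (ENSSSCG00000024482 and ENSSSCG00000028568) had over 3 counts in 7 and 9 of 88 libraries and no count in 39 and 45. In the 15 FS Baseline libraries the first had at most 4 counts and the second at most 2. Counts stood out at FR2 in FS animals 19 (57 and 84 counts), 17 (22 and 38) and 9 (5 and 10), of which the first 2 were among the libraries nearest to another timepoint. The second identifier was called higher at FR2vB and FR8vB in FS, with at most 10 counts in any FR8 library, and without the 18 libraries it was too low to be tested, so no fold is given. The heat-inducible HSP70 itself, annotated here as HSP70.2 (ENSSSCG00000029160), had no count in any of the 92 libraries. Its pig copies are nearly identical, and how reads that fit several copies were counted is not given in the sources used here. HSPA8, HSP90AA1, HSPD1 and HSPE1 likewise have near-identical processed copies in mammalian genomes, so their levels are uncertain to that extent.

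Within most animals the 4 cytosolic genes that were called higher at FR2vB in FS were higher together, which is no separate support for those calls. The HSP70 cofactor BAG3 went the other way, lower in 14 of 15 FS animals at FR8 and at FR20. DNAJB1, HSPH1, HSPA8 and HSP90AA1 were all higher than at Baseline in 12 of 15 FS animals at FR2, 13 at FR8 and 11 at FR20, and in 5 of 5, 4 of 4 and 3 of 5 CPF animals. Animal 11 is not among the FS animals at FR2 and FR8, because HSPA8 had no count in those libraries. How many of all genes were higher in as many animals was not counted, here or for the mitochondrial members. HSPD1, HSPE1 and HSPA9 were all higher in 10, 14 and 11 of 15 FS animals and in 4 of 5, 4 of 4 and 3 of 5 CPF animals. Animal 10, whose Baseline library was nearest to FR8, had the lowest change of the FS animals at FR8 for DNAJB1 (-1.33), HSPH1 (-1.61), HSP90AA1 (-1.64), HSPD1 (-1.28) and HSPE1 (-1.14), each as a log2 ratio of FR8 to Baseline. Animal 9 had the highest log2 change at FR2 for DNAJB1 (4.72), HSPH1 (5.63) and HSP90AA1 (2.97). From FR8 to FR20 in CPF all 4 cytosolic genes were lower in 4 of 4 animals. None of the 9 members was called in that comparison by edgeR or DESeq2, and 0.0220% of all genes were called by edgeR. There 6 members had an unadjusted p under 0.05 by edgeR, beside 1484 of 13667 genes. In FS none was called from FR8 to FR20 by either tool, and 1.46% of genes were called by edgeR. Here 1 member had an unadjusted p under 0.05 by edgeR, beside 2962 of 13667 genes.

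**Figure D3:**
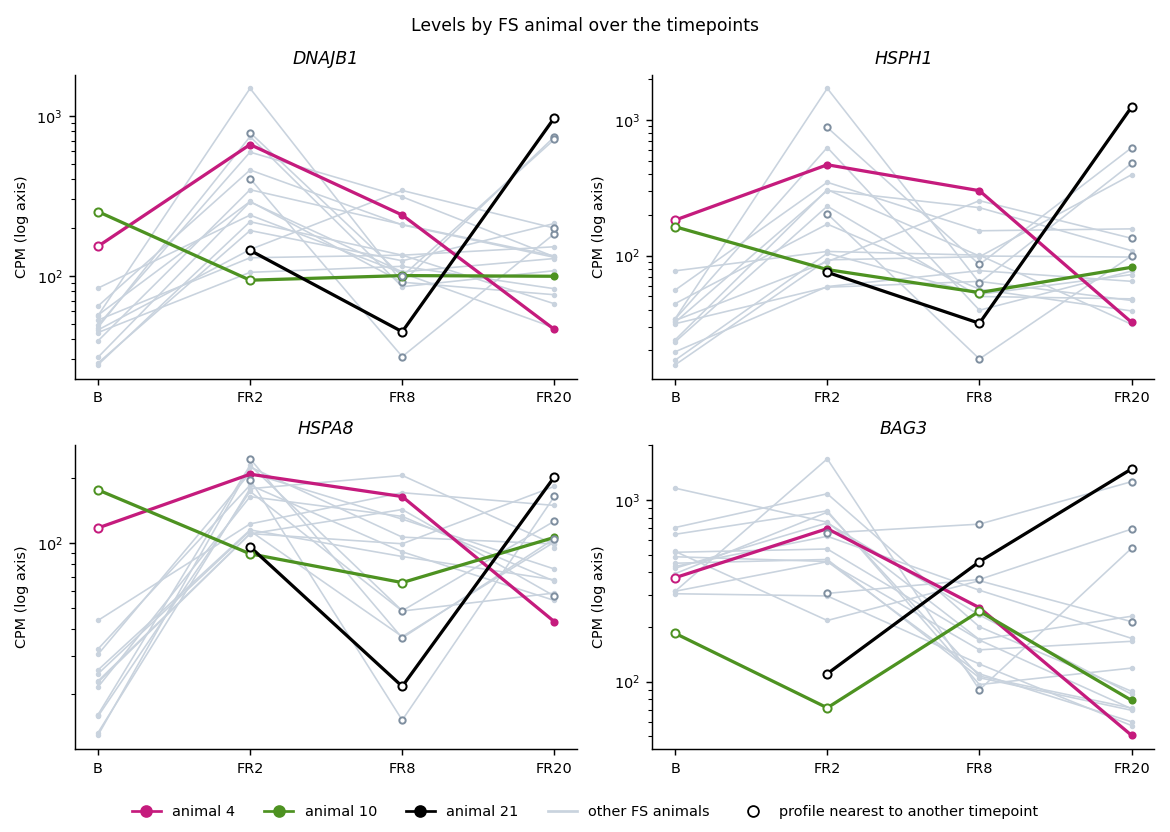
Levels of DNAJB1, HSPH1, HSPA8 and BAG3 in CPM (log axis) along the timepoints, 1 line per FS animal, with animals 4, 10 and 21 drawn in color and open circles for libraries nearest to another timepoint. The 2 HSPA8 libraries of animal 11 with no count are not drawn. Animals 4 and 10 start highest for DNAJB1, HSPH1 and HSPA8, and animal 21 ends highest for DNAJB1 (972 CPM), HSPH1 (1241 CPM), HSPA8 (202 CPM) and BAG3 (1485 CPM).

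Whether carbohydrate prefeeding altered these changes was asked by comparing the change from Baseline between CPF and FS. None of the 9 members was called at FR2, FR8 or FR20 by edgeR or DESeq2, and none had an unadjusted p under 0.05 by edgeR. Over all genes edgeR called 0%, and DESeq2 0 genes at FR2vB, 2 at FR8vB and 2 at FR20vB. The intervals were wide. At FR8vB the difference, CPF minus FS, was 1.35 for DNAJB1 (95% interval -0.10 to 2.80) and 1.42 for HSPH1 (-0.29 to 3.13), and all 8 members other than HSPB1 had a positive difference, while at FR20vB all 8 had a negative one, with -1.31 for HSPA8 (-2.95 to 0.33). These members share animals and libraries, so the 8 are not separate observations. Without the 18 libraries the FR8vB differences were 0.18 for DNAJB1 and -0.08 for HSPH1, and 6 of the 8 members were negative. At FR20vB HSPA8 stood at -1.56.

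At each timepoint taken alone, CPF and FS animals did not differ by a called amount for any member. At Baseline none of the 8 members tested had an unadjusted p under 0.05 by edgeR (0.0257% of all genes called), with a DNAJB1 difference of -0.23 (95% interval -1.06 to 0.61) and an HSPA9 difference of 0.07 (-0.22 to 0.37). At FR2 again none had (0% of genes called), with HSP90AA1 at -0.29 (-1.01 to 0.43). At FR8 DNAJB1 was 0.89 higher in CPF (0.13 to 1.66, edgeR adjusted p = 0.955). At FR20 all 8 members other than HSPB1 were lower in CPF with a median of -0.86, and HSPA8 at -1.16 (-1.84 to -0.47), HSPH1 at -2.13 (-3.79 to -0.47) and DNAJB1 at -1.54 (-2.86 to -0.21) had unadjusted p under 0.05 but an edgeR adjusted p of 1. Of all 12307 genes tested at FR20, 400 had an unadjusted p under 0.05 by edgeR. By DESeq2 4 members had one at FR20, beside 431 genes, and none of the members was called. At FR20 the highest FS libraries were those of animals 21 and 9 for DNAJB1 and 21 and 19 for HSPH1, all of them among the 18, and without the 18 the FR20 differences were -0.90 for HSPA8, -0.80 for HSPH1 and -0.20 for DNAJB1.

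Animals that died were compared with those that lived at each timepoint, with feeding group as a term. No member was called and none had an unadjusted p under 0.05 by edgeR at any timepoint, and DESeq2 called no member. Over all genes edgeR called 0% at each timepoint, and DESeq2 10 genes at Baseline, 3 at FR2 and 0 at FR8 and FR20. The difference, died minus lived, was 0.10 for DNAJB1 at FR2 (95% interval -1.08 to 1.27). At FR8 it was 0.60 (interval -0.12 to 1.32), and at FR20 -0.30 (interval -1.65 to 1.04). With 5 animals that died, intervals of this width leave differences of over 2-fold in either direction undetectable for DNAJB1 at FR2 and FR20. HSPA9 had the tightest interval at FR2, -0.01 (-0.30 to 0.27). Of 12 chaperones of the endoplasmic reticulum, described with the role groups, 10 had an unadjusted p under 0.05 at FR20, with a median difference of 0.64, and none was called. Of all 12307 genes tested there, 642 had such a p by edgeR, and the median difference was -0.026. These 12 genes share animals and libraries, so they are not separate observations. The FR20 library of animal 20, which died, was nearest to FR8. Of animals that lived, the FR20 libraries of 17, 19 and 21 were nearest to FR2, that of 13 to Baseline and that of 9 to FR8. The difference without these libraries is not given here, and their part in it was not tested.

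Other genes of the chaperone network were taken from 10 role groups with 84 symbols, of which 66 had an identifier and 61 were tested. They were called higher in 7 (FR2), 14 (FR8) and 6 (FR20) of 61 genes in FS and none was called lower, beside the percentages of all genes given above. In CPF 1, 16 and 0 were called, all higher, and the calls at FR2 and FR8 were all lost in the 3 animals that lived. Their median change was 0.42, 0.49 and 0.34 in FS and 0.47, 0.57 and 0.09 in CPF.

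Among the HSF1 targets outside the member list, ZFAND2A, an arsenite- and heat-induced proteasome adaptor, rose 5.66-fold at FR2vB in FS (log2 fold change 2.50, SE 0.44, edgeR adjusted p = 6.7e-06). Its FS medians went from 37.9 CPM at Baseline to 339 at FR2, 231 at FR8 and 153 at FR20. IER5, an immediate early gene product that activates HSF1, rose by 1.07 at FR2vB in FS, a call lost when animal 9, 16 or 22 was left out (lowest 0.93) and with the 3 Baseline libraries that lack albumin kept (0.72), and DEDD2 was at 0.09. HSF1 itself had a change of 0.56 at FR2vB in FS (SE 0.10, edgeR adjusted p = 1.93e-05), under the fold threshold, and HSF2 one of 0.01. Neither of these 2 heat shock factors was called in any comparison.

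In the HSP70 and HSP110 group HSPA2 rose 4.93-fold at FR2vB in FS (log2 fold change 2.30, edgeR adjusted p = 3.91e-05) and 9.58-fold in CPF (3.26, SE 0.80, edgeR adjusted p = 0.016), from a Baseline median of 3.18 CPM in FS. The CPF call was lost when animal 3, 8, 13 or 18 was left out, with values from 2.87 to 3.72. HSPA4L was called at FR8 (1.96) and FR20 (2.27) in FS at median levels of 1.58 and 2.24 CPM. Its FS Baseline median was 0.199 CPM, with no count in 5 of 15 libraries, so the size of these changes is uncertain. The FR8vB call of HSPA4L was lost when fitted without terms for the animals and in animals that lived. HSPA14 was the lowest of the group at FR2vB (0.34). Among 8 HSP40 genes DNAJA1, which works with HSPA8, rose by 1.44 at FR2vB and 1.35 at FR20vB in FS and by 1.66 at FR8vB in CPF, where the call was lost when any CPF animal was left out (lowest 1.24). DNAJB2 rose by 1.35 at FR8vB in CPF and stood at 0.84, under the fold threshold, in FS. Its CPF call was lost when animal 13 or 18 was left out (lowest 0.96). None of 5 HSP70 cofactors was called, from HSPBP1 at 0.59 to STUB1 at -0.16 at FR2vB in FS.

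Of 11 tested HSP90 genes and co-chaperones beside HSP90AA1, 3, 3 and 2 were called at FR2vB, FR8vB and FR20vB in FS, all higher. STIP1, the adaptor that joins HSP70 to HSP90, rose in FS by 1.31 at FR2vB, 1.06 at FR8vB and 1.23 at FR20vB and in CPF by 1.79 at FR8vB. Its FR8vB call in FS was lost when animal 6 or 20 was left out (lowest 0.95). That call was also lost when fitted without terms for the animals and in animals that lived. CHORDC1, an HSP90-binding protein, rose by 1.68, 1.24 and 1.62 in FS and by 2.00 at FR8vB in CPF. The CPF call of CHORDC1 was lost when animal 3, 8, 13 or 18 was left out (lowest 1.70) and with the 3 Baseline libraries that lack albumin kept. FKBP5, an immunophilin that is also a glucocorticoid target, rose by 1.02 at FR2vB in FS, at the fold threshold: the call was lost when animal 1, 4, 5, 6, 8, 12, 14, 18, 20 or 23 was left out (0.87 to 1.14) and when fitted without terms for the animals. With the 3 Baseline libraries that lack albumin kept, the FS calls of STIP1, CHORDC1, FKBP5 and PPID were lost at each timepoint. PPID (1.05 in FS, 1.39 in CPF) and PTGES3 (1.17 in CPF) were called at FR8vB, and UNC45A was the lowest of the 11 genes at FR2vB (-0.09). The FS call of PPID was lost when animal 14, 16 or 23 was left out (lowest 0.97), when fitted without terms for the animals and in animals that lived. The CPF calls of PPID and PTGES3 were lost without animal 18.

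Of 3 small heat shock protein genes tested beside HSPB1, CRYAB rose by 1.78 at FR8vB and 1.29 at FR20vB in FS and by 2.83 at FR8vB in CPF. The FR20vB call was lost when animal 1, 2, 5, 6, 9, 12, 14, 15, 16, 20, 22 or 23 was left out (lowest 1.11), with FS fitted alone and in animals that lived, and the change ran from 0.12 to 2.10 over the alternative settings. The CPF call was lost when any CPF animal was left out. With the 3 Baseline libraries that lack albumin kept, no call of CRYAB was left. CRYAB was one of the genes with no count in the 2 libraries of animal 11, and without these its FR2vB change in FS went from 1.13 (edgeR adjusted p = 0.0853) to 1.38. HSPB6 was lowest at -0.21. The 6 subunits of the cytosolic chaperonin CCT tested all had an unadjusted p under 0.05 by edgeR at each FS timepoint. Of all 13667 genes, 6668, 6506 and 5939 had such a p at FR2vB, FR8vB and FR20vB in FS. The CCT median changes were 0.66, 0.42 and 0.49, and no subunit passed the fold threshold. The subunits ran from 0.29 (CCT7) to 0.93 (CCT3) at FR2vB in FS. None of 4 other mitochondrial chaperones and proteases was called, with GRPEL2, a nucleotide exchange factor of HSPA9, at 0.42 and TRAP1, the mitochondrial HSP90, at -0.21 at FR2vB in FS.

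Chaperones of the endoplasmic reticulum (ER), which are regulated mainly by the unfolded protein response, were called at FR8 and not at FR2 or FR20. In FS 0 of 12 were called at FR2vB by edgeR, with 1 at an unadjusted p under 0.05, 8 of 12 at FR8vB and 0 of 12 at FR20vB, with 8 at an unadjusted p under 0.05. Of all 13667 genes, 6668 at FR2vB and 5939 at FR20vB had such an unadjusted p by edgeR. The median changes of the ER chaperones were 0.19, 1.40 and 0.45. HSPA5, the ER HSP70, had FS medians of 563 CPM at Baseline, 1265 at FR2, 3502 at FR8 and 1364 at FR20 and rose 4.33-fold at FR8vB (log2 fold change 2.11, edgeR adjusted p = 6.69e-05). SDF2L1 (2.17), DNAJB11 (1.98), HYOU1 (1.89), HSP90B1 (1.75), PDIA4 (1.40), DNAJC3 (1.39) and CALR (1.17) rose beside it. The FS call of PDIA4 was lost when animal 6, 14 or 23 was left out, and those of PDIA4 and HYOU1 in animals that lived. In CPF 7 of 12 were called at FR8vB (median 1.66), among them HSPA5 (2.85) and PDIA3 (1.08), and none at FR2vB or FR20vB. Each of these 7 calls was lost when animal 18 was left out, and that of SDF2L1 when any CPF animal was. The calls of PDIA3 and CALR were also lost without animal 7 or 13. From FR2 to FR8 in FS 7 of 12 ER chaperones were called higher, beside 2.52% of all genes, the comparison in which DNAJB1, HSPH1 and BAG3 were called lower. Without the 18 libraries their median changes in FS were 0.32, 2.07 and 0.74, with HSPA5 at 1.26 at FR2vB. Without the 2 libraries of animal 11 the counts were 0, 8 and 0.

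**Figure D4:**
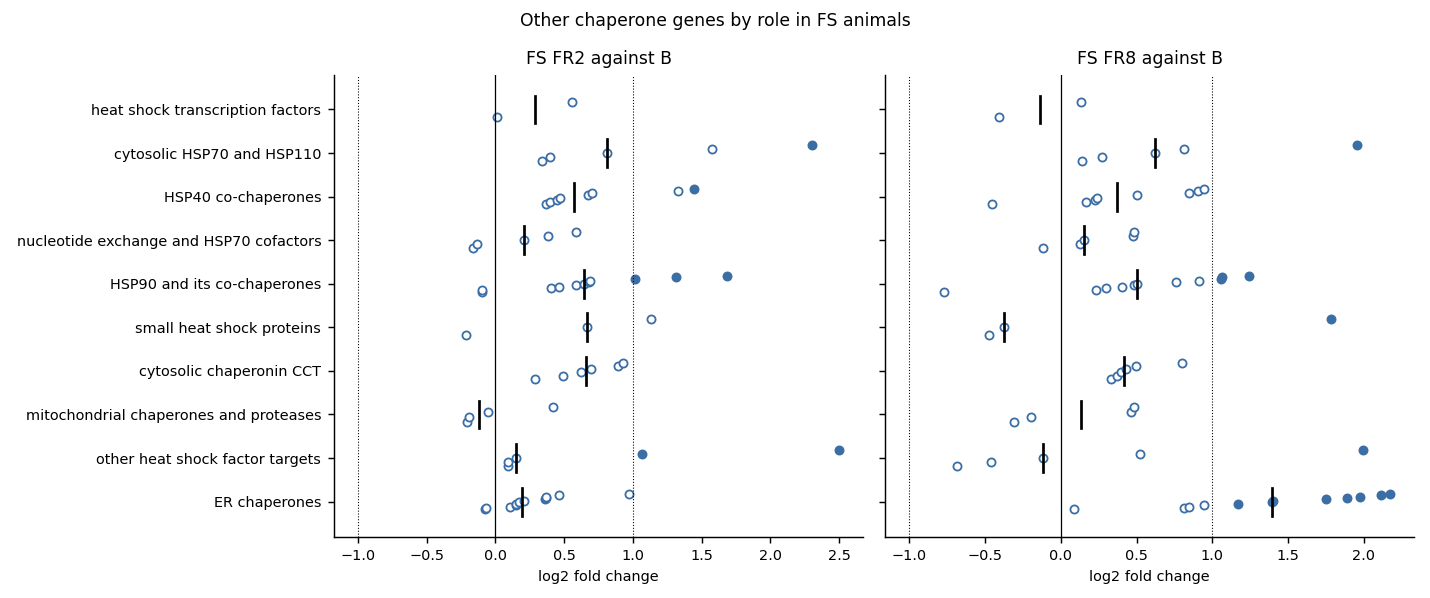
Fitted log2 fold changes from Baseline in FS animals for the tested genes of each role group, at FR2 and at FR8, 1 point per gene. Filled points passed both thresholds, black bars are group medians and dotted lines mark a change of 1 in either direction. The ER chaperone median is 0.19 at FR2 and 1.40 at FR8, and the CCT median 0.66 and 0.42.

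The genes whose fitted changes from Baseline lay nearest to each member were found over 8143 genes with a symbol and a mean level of at least 1 CPM, by the mean absolute difference over the 6 changes (FR2, FR8 and FR20 in FS and in CPF), which share their Baseline libraries. HSPH1 and DNAJB1 were each other's nearest gene (0.17), followed for both by HSPA2 (0.29 and 0.27). For HSPA8 they were CHORDC1 (0.26) and HSPH1 (0.31). HSP90AA1 lay nearest to PRKCA (0.085) and ISG20 (0.15), HSPD1 to VCP (0.083) and EXTL3 (0.095), HSPE1 to BPNT1 (0.050) and MCPH1 (0.053), and HSPA9 to KHSRP (0.035) and MYO18A (0.042). BAG3 lay nearest to HAVCR2 (0.16). At the few counts of HSPB1 the nearest genes were PPP1R3B (0.24) and MICALL1 (0.25) for the first identifier and TRIB3 (0.32) and HMGA1 (0.36) for the second. DNAJB1 and HSPH1 were thus followed most closely by other chaperone genes, and the mitochondrial members by genes outside the list.

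Marker genes of the cells a liver biopsy can hold moved over the same timepoints. The summed level of 10 identifiers of hepatocyte plasma proteins had FS medians of 218530 CPM at Baseline (range 92455 to 246532), 153612 CPM at FR2 (63740 to 187647), 93502 CPM at FR8 (62229 to 216800) and 60974 CPM at FR20 (28469 to 175324), and CPF medians of 204439, 155413, 99233 and 59093 CPM. The summed level of 7 neutrophil markers had FS medians of 8.10, 22.4, 13.4 and 14.1 CPM and CPF medians of 7.02, 24.5, 17.8 and 10.97 CPM, with CSF3R, which defines neutrophils, at 0 in all 88 libraries. The 5 macrophage markers had FS medians of 1539, 1159, 1057 and 1031 CPM, and those of T and NK cells 28.4, 25.9, 25.7 and 25.0 CPM. For 3 endothelial markers the FS medians were 165, 144, 158 and 160 CPM, for 6 striated muscle markers 23.3, 17.3, 12.6 and 16.3 CPM, for 3 erythroid markers 256, 245, 121 and 110 CPM, and for 3 adipocyte markers 9.57, 7.38, 16.6 and 24.9 CPM. In a bulk biopsy fewer cells of a type and less RNA per cell cannot be told apart, and the part of these shifts in the heat shock protein changes was not tested.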

How the data were processed

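Poly(A)-selected RNA from pig liver biopsies was sequenced on the Illumina HiSeq 2000. The authors demultiplexed reads with CASAVA 1.8.2, mapped them to Sscrofa10.2 with TopHat 1.5.0, handled alignments with SAMtools and counted reads per Ensembl gene with HTSeq, and they used edgeR 3.2.4 for their own tests. The counting mode and strand option of HTSeq are not given in the sources used here, so a gene cannot be told apart from an antisense gene over it. The deposited table holds whole-number counts, 25322 identifiers by 92 libraries, and it carries none of the authors' fold changes or p-values. Symbols came for 11804 identifiers from the gene name table and for 700 from the study's tables, whose fold changes and p-values were not used.

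Members, gene lists and tests were chosen with earlier results of these data known. Libraries were grouped by feeding group, timepoint and animal as labelled, with 4 libraries left out. Counts were analysed with edgeR 4.0.16 and limma 3.58.1 in R 4.3.3: TMM scaling, genes with a summed CPM of at least 10, a quasi-likelihood F test (2-sided) with Benjamini-Hochberg adjustment over all genes tested, and calls at adjusted p under 0.05 and a log2 change of at least 1. Changes from Baseline and the CPF minus FS differences came from 1 fit with a term for each animal (13667 genes). Comparisons at a single timepoint were fitted on that timepoint (11688 to 12307 genes). Intervals are 95%, the estimate with normal limits on its SE, and cover counting error and spread between these animals only. Floors are 3 counts and cover counting error within a library only. The 4 to 18 libraries of a group are separate animals. In that paired fit a term for each animal was kept because same-numbered libraries come from 1 animal. Their deviations from group means had a median correlation of 0.205 over 126 pairs, 94 of them over 0.1, against -0.0159 over 1791 pairs of different animals.

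Named genes were the 9 members. In addition the genes with the highest and lowest change at FR2vB in FS in each of 10 role groups were named, every role group gene called in any of 6 changes from Baseline, and the 2 genes nearest in pattern to each member, of which 1 is not reported here. The role groups were heat shock factors, cytosolic HSP70 and HSP110, HSP40, HSP70 cofactors, HSP90 and its co-chaperones, small heat shock proteins, CCT, mitochondrial chaperones and proteases, other heat shock factor targets, and ER chaperones. The alternatives were 15 planned settings, each of 23 animals left out in turn (keeping the trended dispersion of the full fit), and 2 settings added after seeing the data: without the 2 libraries of animal 11, and without the 18 libraries nearest to another timepoint. DESeq2 1.42.0 was 1 of the planned settings. The tests were checked on simulated counts. Figures were drawn with matplotlib 3.10.9 under Python 3.11.15, and tables built with pandas 2.3.3 and numpy 2.4.6.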

Additional observations from a re-analysis of the deposited data

Results flagged for a closer look

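Among 33 groups of 4 to 10 libraries, 3 held a library whose gap to its neighbour was large against the group's range, where chance gives about 1 in 20. They were HSPA8 in CPF animal 8 at FR2 (165 CPM, the others 74.6 to 98.7), BAG3 in CPF animal 13 at FR20 (507 CPM, the others 54.6 to 104), and the second HSPB1 identifier in CPF animal 8 at FR8 (0.254 CPM, which is 4 counts). In that HSPB1 group the other libraries had no count, so the gap equals the whole range at any level. This flag therefore cannot be set beside the chance rate. The FR20 library of animal 13 was also nearest to Baseline in its whole profile.

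The FS Baseline libraries of animals 17, 19 and 21, set aside because they lack albumin, had signal for some members above every FS Baseline library used, each as CPM of the library's own total. HSPA8 stood at 227, 380.4 and 446 CPM in the libraries of animals 17, 19 and 21, against 10.01 to 195 CPM in the 15 used. HSPH1 stood at 242, 284 and 479 CPM against 13.95 to 188 CPM. HSPA9 was at 946 (animal 17) and 862 CPM (animal 21) against 304 to 827 CPM. The first HSPB1 identifier was at 28.9, 64.1 and 4.31 CPM against 0 to 0.285 CPM, and the second at 31.0, 71.4 and 6.61 CPM against 0 to 0.143 CPM. DNAJB1, by contrast, lay within the range of the libraries used, at 44.6, 50.9 and 69.3 CPM. The tissue of these 3 libraries was not tested.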

How the results depend on the processing

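Over the 15 planned and 2 added settings, 249 of 275 counts of members called stayed within 1.5 times the value given. With 1 animal left out, 458 of 483 did. Most of these counts come from comparisons with a value of 0, so the pooled figures do not show how stable the calls were. With each of 23 animals left out in turn, the CPF FR2vB count moved for 12 animals. The CPF FR8vFR2 count moved for 7, CPF FR8vB for 4 and FS FR8vB for 1. Those of FS FR2vB, FS FR20vB and FS FR8vFR2 moved for none. The tests of CPF against FS and of died against lived gave no call in any setting. Counts here include HSPB1, and those without the 18 libraries, which were picked on expression, are descriptions. Counts that moved were these. In FS at FR8vB, 6 fell to 2 in animals that lived (BAG3 and HSP90AA1), with 3 (without animal 6) to 7 (without animal 10) with 1 animal left out. At FR20vB in FS, 5 fell to 2 (BAG3 and DNAJB1) with 91 or 92 libraries kept, and at FR8vFR2 3 rose to 5 on adjusted p alone. In CPF at FR2vB, 2 became 1 with no filter on low counts or with 91 or 92 libraries, 0 in animals that lived, 4 with CPF fitted alone, and 0 to 2 with 1 animal left out (0 without animal 3 or 18). At FR8vB in CPF, 5 became 3 with 91 or 92 libraries or without the 18, 0 in animals that lived, and 2 to 5 with 1 left out (2 without animal 13 or 18). At FR20vB in CPF, 0 became 1, BAG3, with DESeq2, with CPF alone and without the 18, and 0 to 1 with 1 left out (1 without animal 13). At FR8vFR2 in CPF, 1 became 0 with a summed CPM of 3, no filter, 91 or 92 libraries, animals that lived or without the 18, and 0 to 1 with 1 left out. At FR20vFR8 in CPF, 0 became 4 with CPF alone and 2 without the 18. The cause of these moves was not tested.

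With no replicate block, that is without terms for the animals, 5, 5, 4 and 4 members were called in FS at FR2vB, FR8vB, FR20vB and FR8vFR2 and 1, 4 and 0 in CPF at FR2vB, FR8vB and FR8vFR2. The count moved by over 1.5 times at CPF FR2vB (1) and CPF FR8vFR2 (0).

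Some changes, most of them close to 0, turned sign. These were log2 fold change of BAG3, CPF FR2vB (0.15, with -0.042 in animals that lived and -0.023 to 0.22 with 1 left out, lowest without animal 8), log2 fold change of HSPE1, CPF FR20vB (0.27, with -0.13 in animals that lived), and log2 fold change of HSPH1, CPF FR20vB (0.29, with -0.024 without animal 18 and up to 0.60 without animal 7). Of the other chaperone genes they were log2 fold change of DEDD2, FS FR2vB (0.093, with -0.015 to 0.14 with 1 left out, lowest without animal 22), log2 fold change of HSF2, FS FR2vB (0.014, with -0.00048 by RLE size factors, -0.29 and -0.27 with 91 and 92 libraries, -0.0021 without the 2 libraries of animal 11, and -0.051 to 0.096 with 1 left out), log2 fold change of SDF2L1, FS FR2vB (-0.073, with 0.42 and 0.43 with 91 and 92 libraries, and -0.24 to 0.28 with 1 left out), and log2 fold change of CRYAB, FS FR2vB (1.13, with -0.29 and -0.27 with 91 and 92 libraries). The other changes recomputed, from Baseline or from FR2 to FR8 within a feeding group, kept their direction. The CPF minus FS differences of single genes were not among these. HSPB1 counts were too low to give a fold at these depths.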
